A study of Rattus norvegicus with 60 samples.

Results

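Changes in the spinal cord over the first hours after sham surgery were followed within the sham-operated rats given vehicle (S-EtOH), by setting the 6 arrays at 2, 4 and 6 h against the 2 arrays at 0 h. These 8 arrays were 8 of the 60 arrays of the series, and all 14324 genes that could be named from probe sets with 1 gene symbol were compared. The arrays were chosen by their labels alone, and no measured value entered the choice.

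The series compared the cord of sham-operated and contused rats, each with vehicle or methylprednisolone, at times from 0 to 48 h, with duplicate rats for each group and time and an array for each rat. All animals were female Long Evans rats of 8 or 9 weeks. The S-EtOH rats had sham surgery under Zoletil 50 and Rompun, no contusion, and 70% ethanol as the vehicle. A thoracic laminectomy is described for the contused rats, and the sources used here do not say what the sham operation opened. Per the labels the 0 h rats were killed directly after the vehicle, so they too are sham-operated and dosed rats, and not untouched ones. SCI-EtOH rats, used below for comparison, had the same anaesthetics and vehicle with a laminectomy and a weight-drop contusion. No S-EtOH group without surgery or without ethanol was analysed here, so surgery, anaesthesia, ethanol and time of day cannot be told apart. Each array holds RNA of about 5 mm of cord, a mixture of neurons, glia, vessels and blood, in which fewer cells of a type and less RNA per cell cannot be told apart.

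The values are log2 values that the authors centred for each probe set, so a value says how far an array lies from a gene's own centre and carries no expression level. For this reason genes are not ranked by level here, and the labelled tissue could not be checked by the presence of cord markers. A log2 difference of 1 is a doubling. Differences were tested with limma and called at an adjusted p (Benjamini-Hochberg, over all 14324 genes) under 0.05, and ± gives the standard error.

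Surgery near the cord is known to start an inflammatory response in tissue that was never struck. Damaged cells and plasma proteins activate NF-kappaB, a transcription factor held in the cytoplasm by its inhibitor IkappaB-alpha, and NF-kappaB switches on chemokines, adhesion molecules and its own inhibitors. Cytokines of the interleukin-6 family act through STAT3, and stress steroids from the adrenal gland act through the glucocorticoid receptor, which also induces metallothioneins and other protective genes.

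At 2 to 6 h, 23 genes were higher than at 0 h, which is 0.161% of the genes tested, and no gene (0%) was lower. Among the 23 were genes for chemokines and cytokines (Ccl2, Lif, Tnf), prostaglandin synthesis (Ptgs2, Ptges), NF-kappaB feedback (Nfkbia, Nfkbiz, Bcl3) and metal handling (Mt1, Slc39a14). Their log2 differences ran from 0.43 for Bcl3 to 2.64 for Ccl2, and 14 of the 23 at least doubled. All 23 had positive differences at each of the 3 times, and in 22 of them every array at 2 to 6 h lay above both arrays at 0 h. The exception was Mt1. Such a complete separation was seen upwards in 849 genes (5.93%) and downwards in 1672 genes (11.7%), so it is common among genes that were not called. At an unadjusted p under 0.05, limma gave 258 genes as higher and 300 as lower, and the median difference over all genes was -0.02. These 558 genes are fewer than the 0.05 share of 14324 genes that such a p would give if no gene changed. The same contrast tested without moderated variances called 15 genes higher and 0 lower, and after quantile normalization between arrays 43 were higher and 36 lower.

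**Figure D1:**
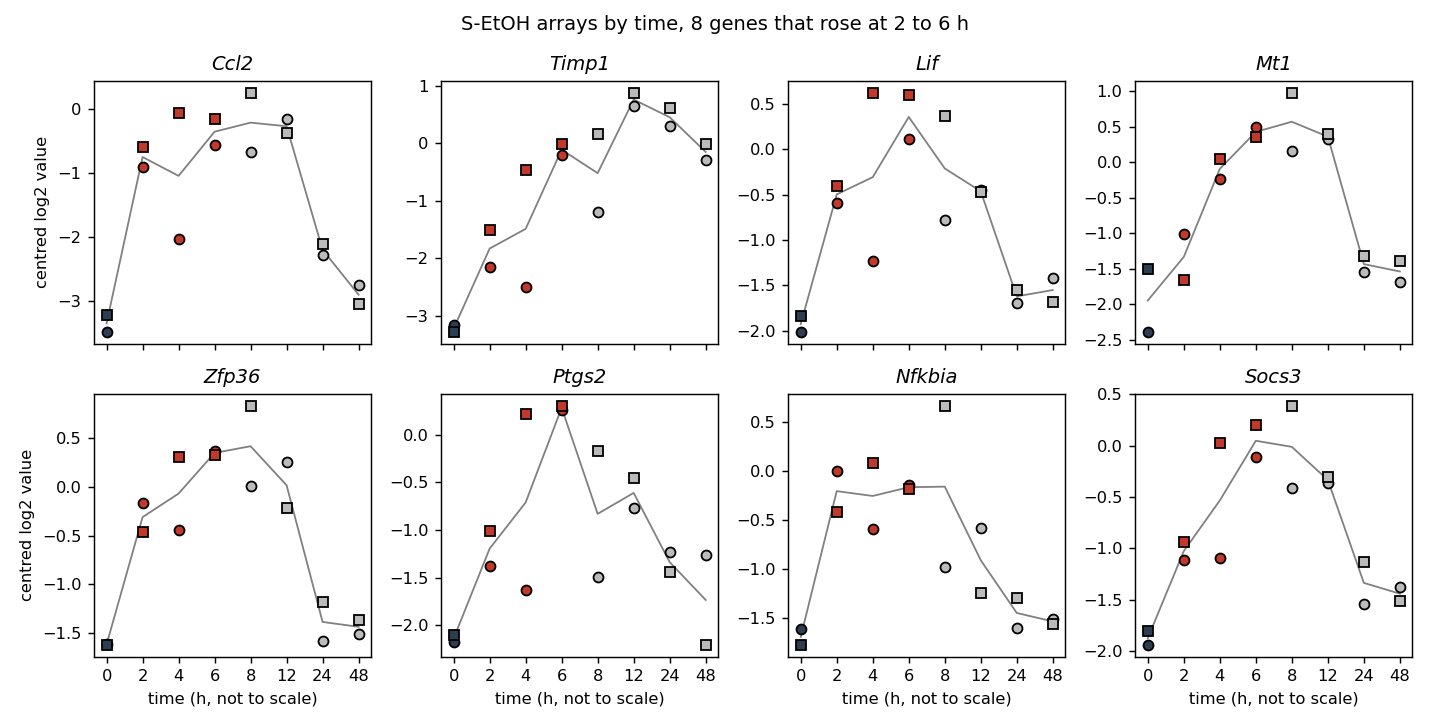
Centred log2 values (y axis) of 8 of the genes that rose, in each S-EtOH array at 0 to 48 h (x axis, not to scale). Circles are duplicate 1 and squares duplicate 2 of a time, dark points are 0 h, red points 2 to 6 h, grey points later times, and lines join the means. Every red point lies above both dark points except 1 array at 2 h in Mt1.

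The largest rise was that of Ccl2, the chemokine that draws monocytes into tissue. Its centred log2 value was -3.49 and -3.22 in the 0 h arrays, -0.91 and -0.59 at 2 h, -2.03 and -0.07 at 4 h, and -0.56 and -0.16 at 6 h. The 0 h arrays lay far below those at 2 to 6 h, of which the lowest was duplicate 1 at 4 h. The difference was 2.64 ± 0.36, a 6.21-fold rise, with an adjusted p of 0.000209 in limma. Lif, a cytokine of the interleukin-6 family that is released by injured neural tissue, was at -2.01 and -1.84 at 0 h, -0.59 and -0.40 at 2 h, -1.24 and 0.62 at 4 h, and 0.12 and 0.59 at 6 h. Its difference was 1.78 ± 0.34 (adjusted p = 0.0107, limma), and its groups did not overlap although the 4 h duplicates were far apart. Tnf, the tumour necrosis factor gene, stood at -0.82 and -0.83 at 0 h and between -0.49 and 0.18 in the later arrays, a difference of 0.76 ± 0.15 (adjusted p = 0.0126, limma).

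Both enzymes of the inducible route to prostaglandin E2 rose. Ptgs2 encodes cyclooxygenase-2 and read -2.17 and -2.10 at 0 h, -1.38 and -1.01 at 2 h, -1.64 and 0.21 at 4 h, and 0.26 and 0.30 at 6 h. Its difference was 1.60 ± 0.31 (adjusted p = 0.0126, limma), and the 6 h duplicates were the highest and the closest together. Ptges encodes the prostaglandin E synthase that works with it. It read -1.12 and -1.61 at 0 h, -0.70 and -0.71 at 2 h, -1.08 and -0.06 at 4 h, and 0.36 and 0.42 at 6 h. 4 h duplicate 1 lay barely above the higher 0 h array, and the difference was 1.07 ± 0.23 (adjusted p = 0.0342, limma).

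Of 36 measured members of a list of inflammatory cytokines and chemokines, those 5 genes rose, none fell, and the list's median difference was 0.33 against -0.02 over all genes. Il1b, Il6, Cxcl1, Cxcl2 and Ccl3 did not pass, with differences of 0.89, 0.83, 0.81, 0.82 and 1.55. Ccl3, another monocyte chemokine, read -2.54 and -1.93 at 0 h and from -1.49 to 0.08 at 2 to 6 h, with an adjusted p of 0.643 in limma.

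NF-kappaB feedback genes and targets were the list with the largest share of called genes, 6 of 17 measured members, with a median of 0.46 and none lower. Nfkbia, which encodes IkappaB-alpha, read -1.61 and -1.77 at 0 h, 0.00 and -0.41 at 2 h, -0.59 and 0.08 at 4 h, and -0.14 and -0.19 at 6 h. It was already near its later height at 2 h, and its difference was 1.48 ± 0.29 (adjusted p = 0.0126, limma). Nfkbiz, an inducible nuclear member of the same inhibitor family, read -1.17 and -1.13 at 0 h and from -0.38 to 0.05 later, a difference of 1.01 ± 0.21 (adjusted p = 0.0256, limma). Bcl3, a further nuclear member, moved least of all 23, from -0.36 and -0.24 to between -0.04 and 0.46, a difference of 0.43 ± 0.09 (adjusted p = 0.0342, limma). Its arrays at 2 and 4 h were nearly equal and the 6 h arrays stood above them.

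The remaining members of this list that rose were Ccl2 and the adhesion molecules Icam1 and Sele, which endothelium puts on its surface to catch leukocytes. Icam1 read -1.01 and -0.97 at 0 h, -0.19 and 0.37 at 2 h, -0.51 and 0.19 at 4 h, and -0.12 and 0.04 at 6 h. It was the only called gene with its largest difference at 2 h, and it averaged 0.95 ± 0.18 (adjusted p = 0.00982, limma). Sele, E-selectin, which is made by activated endothelium, went the other way in time. It read -0.25 and -0.24 at 0 h, -0.16 and 0.08 at 2 h, 0.33 and -0.02 at 4 h, and 0.53 and 0.96 at 6 h, a difference of 0.53 ± 0.12 (adjusted p = 0.0466, limma). In a list of 23 activated endothelium genes these 2 and Socs3 rose, none was called lower, and the median was 0.28. Of the 23, 20 had positive differences, and the lowest was Slco1c1 at -1.01, described below with other fits.

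Stretches of the regions before the start sites that hold a match to the NF-kappaB consensus are shown for 4 called genes of this pathway or its neighbours, because the list of NF-kappaB targets held the largest share of the genes that rose. They come from RefSeq (build GRCr8), read 5′ to 3′ on the gene's strand, with the match in capitals and up to 30 bases on each side. Nfkbia lies on the minus strand at chr6:78597073-78597133, Nfkbiz on the plus strand at chr11:58251678-58251720, Bcl3 on the minus strand at chr1:88613556-88613623 and Gbp5 on the plus strand at chr2:233910875-233910944.
Nfkbia: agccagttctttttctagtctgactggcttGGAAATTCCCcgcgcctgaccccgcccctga
Nfkbiz: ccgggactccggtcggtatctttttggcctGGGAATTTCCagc
Bcl3: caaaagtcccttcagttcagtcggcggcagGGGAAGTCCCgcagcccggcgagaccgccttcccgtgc
Gbp5: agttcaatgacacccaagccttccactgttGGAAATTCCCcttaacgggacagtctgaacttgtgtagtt
The match shown begins 31 bases before the annotated start of Nfkbia, 13 before Nfkbiz, 38 before Bcl3 and 94 before Gbp5. A second match in Gbp5, not shown, begins 28 bases before the start.

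The table of promoters held 18 of the 23 genes, and the 5 without an entry were Ccl2, Lif, Myc, Slc39a14 and Gem. The NF-kappaB consensus GGGRNWYYCC (the kappa-B site; R is A or G, N any base, W A or T, Y C or T) was searched on either strand. In the 250 bases before the start it matched in 6 of 18, which were Nfkbia, Socs3, Nfkbiz, Gbp5, Arrdc2 and Bcl3. It matched in 3.82% of all 27457 genes with a promoter. The E-box CACGTG matched in Ptgs2 and Gadd45g, against 6.18% of all genes. The serum response element matched in Zfp36 alone, against 1.62%. The cAMP response element TGACGTCA matched in none of 18 and in 1.78% of all, and the heat shock element GAANNTTCNNGAA in none and in 0.663% of all. The full glucocorticoid response element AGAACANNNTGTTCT matched in none of 18 and in 0.00364% of all genes, a single gene. These matches are letters within a short window, and binding of any factor was not measured.

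Genes that limit or carry cytokine signals through STAT3 formed the next group. Socs3, the feedback inhibitor of the interleukin-6 receptor pathway, read -1.94 and -1.81 at 0 h, -1.11 and -0.94 at 2 h, -1.10 and 0.03 at 4 h, and -0.11 and 0.20 at 6 h. Its difference was 1.37 ± 0.25 (adjusted p = 0.00911, limma). Timp1, an inhibitor of matrix metalloproteinases that astrocytes make under cytokine stimulation, read -3.16 and -3.28 at 0 h, -2.15 and -1.51 at 2 h, -2.51 and -0.47 at 4 h, and -0.21 and -0.02 at 6 h. The average difference was 2.08 ± 0.34, a 4.22-fold rise (adjusted p = 0.00237, limma), and at 6 h alone it was 3.11 ± 0.42. Of 30 measured targets of this pathway Socs3, Timp1 and Bcl3 rose, none fell, and the median was 0.28.

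In the list of reactive astrocyte genes Timp1 and Emp1 rose, 2 of 21, with a median of 0.41. Emp1, an epithelial membrane protein, read -1.68 and -2.06 at 0 h and from -1.64 to -0.21 at 2 to 6 h, with 4 h duplicate 1 barely above the higher 0 h array, and its difference was 1.22 ± 0.26 (adjusted p = 0.0394, limma). Gfap, the filament protein of astrocytes, lay between 0.07 and 0.27 at 2 to 6 h and at 0.09 and 0.15 at 0 h. Gbp5, a guanylate-binding protein induced by interferon, was the 1 gene of 28 in the interferon list that rose, by 0.78 ± 0.17 (adjusted p = 0.0448, limma), while the list's median was 0.21. It read -0.97 and -0.79 at 0 h and from -0.63 to 0.63 later, with both 6 h arrays on top.

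In a list of 29 measured glucocorticoid-induced genes, Mt1, Errfi1, Nfkbia and Arrdc2 rose, none fell, and the median was 0.44. Mt1, a metallothionein that binds zinc and copper, read -2.39 and -1.50 at 0 h, -1.01 and -1.66 at 2 h, -0.23 and 0.05 at 4 h, and 0.50 and 0.36 at 6 h. The groups overlapped at 2 h, and the difference over the 3 times was 1.61 ± 0.26 (adjusted p = 0.00214, limma). Errfi1, an inhibitor of the epidermal growth factor receptor, read -1.49 and -1.66 at 0 h, -0.12 and -0.72 at 2 h, -0.10 and 0.50 at 4 h, and 0.14 and 0.00 at 6 h, a difference of 1.52 ± 0.29 (adjusted p = 0.0107, limma).

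Arrdc2, an arrestin-domain protein, read -0.10 and -0.18 at 0 h, 0.18 and 0.01 at 2 h, 0.91 and 0.71 at 4 h, and 0.55 and 0.63 at 6 h, a difference of 0.63 ± 0.13 (adjusted p = 0.0342, limma). It was highest at 4 h, as were Errfi1 and Gadd45g. Members of the list that did not pass included the kinase genes Pdk4 and Sgk1, with differences of 1.16 ± 0.32 and 1.05 ± 0.33 and adjusted p-values of 0.26 and 0.557 in limma. Pdk4 read -1.18 and -1.26 at 0 h and -0.82 and -1.34 at 2 h, and then 0.52, 0.60, 0.27 and 0.41 in the arrays of 4 and 6 h. Fkbp5 was at -0.32 and -0.14 at 0 h, at -0.65 and -0.82 at 2 h, and between 0.14 and 0.46 at 4 and 6 h, and Tsc22d3 had a difference of -0.16. Both are widely used as markers of glucocorticoid action.

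In the list of metallothioneins and redox targets, Mt1 and the zinc importer Slc39a14 rose, 2 of 27, and the median was -0.03. Slc39a14 read -0.98 and -0.88 at 0 h, -0.53 and -0.53 at 2 h, -0.42 and -0.13 at 4 h, and 0.19 and 0.13 at 6 h, a difference of 0.71 ± 0.16 (adjusted p = 0.0448, limma). Hmox1, haem oxygenase, had a difference of 0.86 that did not pass.

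Among 35 immediate early genes, Gadd45g and Myc rose and none fell, with a median of 0.41. Gadd45g, a stress sensor that halts growth, read -1.57 and -1.36 at 0 h and from -0.77 to 0.10 later, a difference of 1.17 ± 0.19 (adjusted p = 0.00214, limma). Myc, a growth-promoting transcription factor, read -1.31 and -1.35 at 0 h and from -0.70 to -0.07 later, a difference of 0.95 ± 0.18 (adjusted p = 0.0122, limma). Fos, Egr1 and Atf3 had differences of 0.49, 0.51 and 0.76 and did not pass, and Dusp1, a phosphatase that ends MAP kinase signalling, had 1.09 ± 0.34.

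Zfp36 encodes tristetraprolin, which speeds the decay of cytokine mRNAs. It was in none of the lists and read -1.61 and -1.62 at 0 h, -0.16 and -0.46 at 2 h, -0.44 and 0.31 at 4 h, and 0.37 and 0.33 at 6 h. The 0 h duplicates were nearly equal and more than 1 log2 unit below every array at 2 to 6 h. The difference was 1.61 ± 0.27 (adjusted p = 0.00365, limma). Pvr, an adhesion receptor of the nectin family and likewise in no list, read -1.64 and -1.72 at 0 h and from -1.14 to 0.01 later, a difference of 1.30 ± 0.24 (adjusted p = 0.00982, limma). Gem, a small GTPase, was the 1 of 22 thyroid hormone and cAMP-responsive genes that rose, from -0.56 and -0.57 to between -0.27 and 0.30, by 0.61 ± 0.13 (adjusted p = 0.0448, limma).

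**Figure D2:**
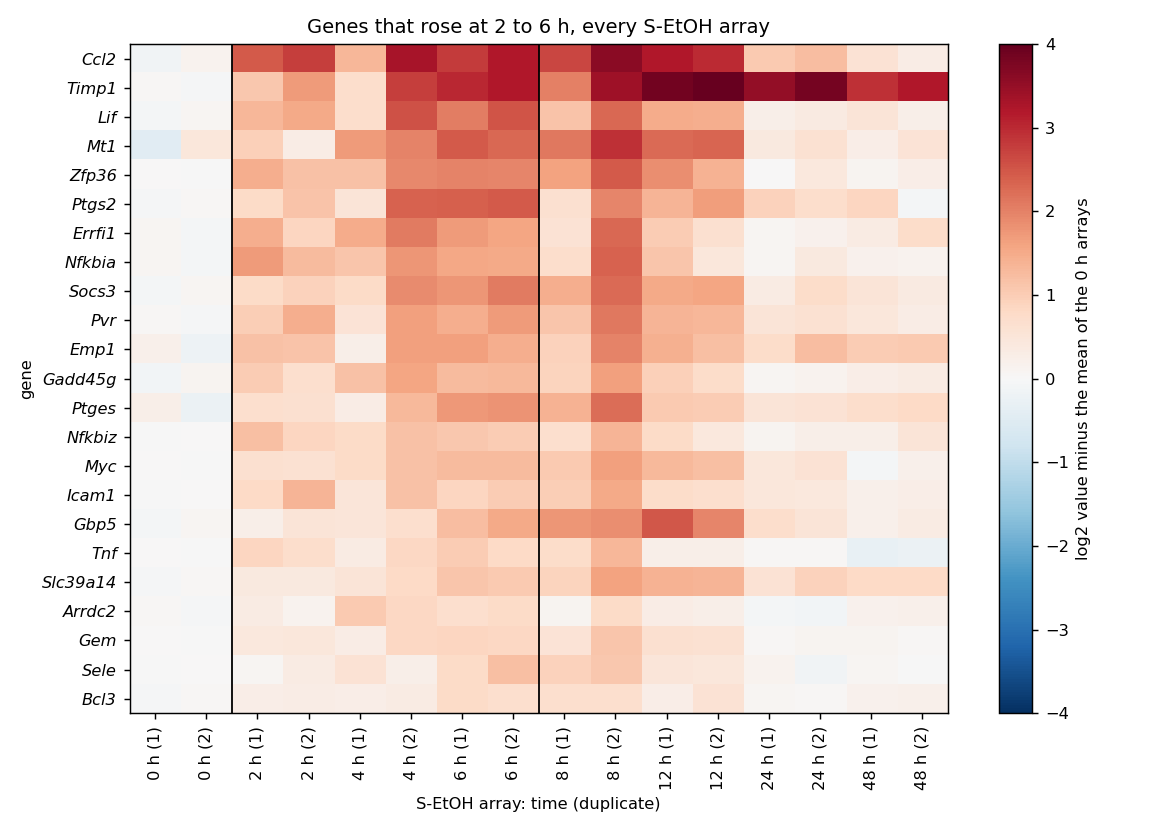
Each of the 23 genes that rose (y axis) in each S-EtOH array by time and duplicate (x axis). Colour is the centred log2 value minus the gene's mean in the 0 h arrays, red for higher, and vertical lines bound the arrays of 2 to 6 h. The column of 4 h duplicate 1 is paler than that of 4 h duplicate 2 for 21 of the 23 genes, and the colours of most genes fade by 24 h while Timp1 stays red.

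The 2 rats at 4 h differed. In 21 of the 23 genes duplicate 1 was lower than duplicate 2, with a median gap of 0.60 between them, against median gaps of 0.02 at 0 h, -0.01 at 2 h and 0.03 at 6 h (duplicate 2 minus duplicate 1). Duplicate 1 at 4 h was the lowest of the 6 arrays in 13 genes. The mean of 14 meningeal fibroblast markers, such as the collagen-binding proteoglycans Dcn and Lum, was -0.57 in this array and 0.02 in the other 4 h array, against 0.04 and -0.04 at 0 h. The mean of 16 neutrophil markers was -0.28 in duplicate 1 and 0.17 in duplicate 2. The part of these differences in the 23 rises was not tested. Without 4 h duplicate 1, 30 genes passed the test, and without 4 h duplicate 2, 14 did.

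The 0 h arrays carried the comparison. Without 0 h duplicate 1 no gene passed the adjusted test in limma, with 190 genes at an unadjusted p under 0.05, and without 0 h duplicate 2 only Ccl2 and Mt1 passed. Leaving out the 6 h arrays left Ccl2 and Gadd45g, leaving out the 2 h arrays left 34, and leaving out the 4 h arrays left 27. All 23 remained positive without either 0 h array, although each such fit leaves a single array at 0 h. Sizes also moved in other settings, such as quantile normalization and left-out times. Over all alternatives tried, Ccl2 ranged from 1.68 to 2.96, Timp1 from 1.14 to 2.42, Zfp36 from 1.43 to 1.76, Arrdc2 from 0.48 to 1.22, Sele from 0.30 to 1.08 and Bcl3 from 0.29 to 0.72.

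**Figure D3:**
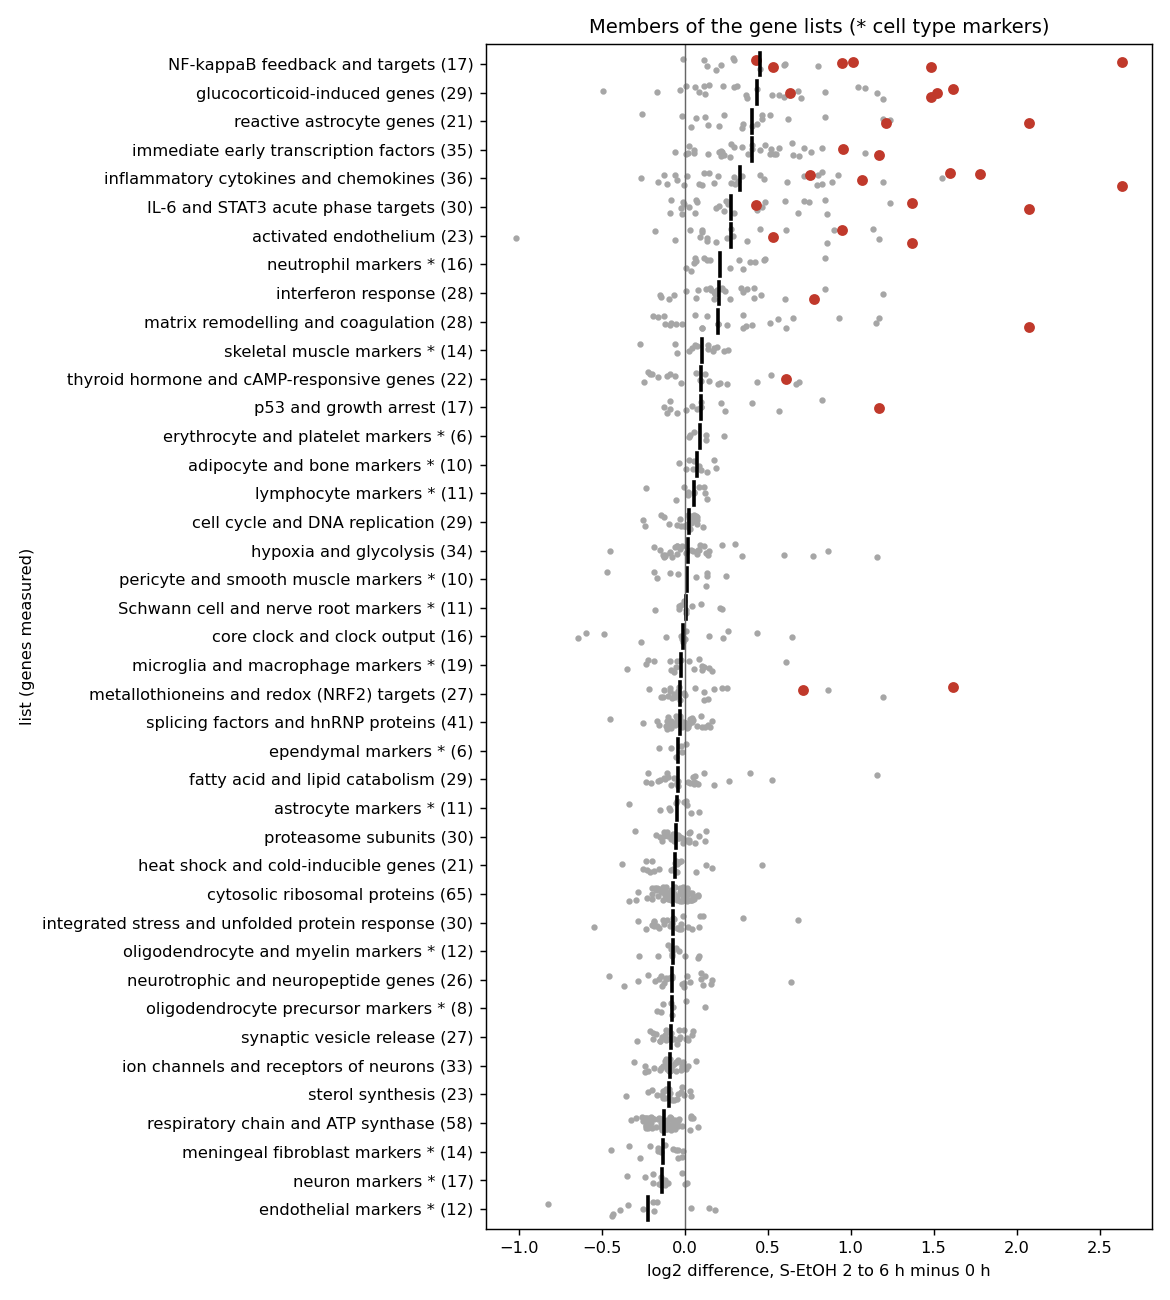
Log2 difference of each measured member (points, x axis) of the gene lists (y axis, number of measured genes in brackets), S-EtOH 2 to 6 h minus 0 h, with black bars for list medians, red points for genes that passed the test and asterisks for cell type markers. Red points occur in 12 of the 26 response lists and in none of the 15 marker lists.

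No member of 15 lists of cell type markers, 176 genes in all, passed the test, where 0.161% of all genes were called higher and 0% lower, and nothing is read from this count. Fitted on the S-EtOH arrays alone, the neuron marker Nefm and the pericyte marker Rgs5 were lower (adjusted p = 0.0364 and 0.0197, limma), and on the 30 sham arrays the neutrophil marker Mmp8 was higher (adjusted p = 0.0328, limma). A single marker per list was followed through all alternatives. Of these, Ocln and Ogn were also called lower, and Itgam, Lcn2 and Actn3 higher, in at least 1 other setting. The list medians lay between -0.22 for endothelial markers and 0.21 for neutrophil markers. All 16 measured neutrophil markers had positive differences, from 0.01 for Fpr1 to 0.84 for Lcn2, the gene for lipocalin-2, which astrocytes also make. S100a9 was at -0.52 and -0.42 at 0 h and between -0.54 and 0.38 later, so its groups overlapped. The mean of the neutrophil list was -0.38 and -0.32 at 0 h, -0.28 and -0.27 at 2 h, -0.28 and 0.17 at 4 h, and 0.10 and 0.03 at 6 h. Neutrophils also express several of the cytokines that rose, and the part of these cells in those rises was not tested.

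The erythrocyte and platelet markers varied most from rat to rat. Their mean over 6 genes was -0.49 and -0.76 at 0 h, -0.10 and -0.38 at 2 h, -0.63 and -0.61 at 4 h, and -0.09 and -1.33 at 6 h. The 6 h duplicates thus spanned the whole range, and Hbb, the beta-globin gene, read 0.04 and -2.02 in them. Between the same 2 arrays the median gap of the 23 genes that rose was 0.03 (duplicate 2 minus duplicate 1). This gap is signed, so opposite gaps cancel in it, and 13 of the 23 genes were lower in duplicate 1. The part of blood in the 23 rises was not tested.

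Neuron markers moved little. The mean of 17 markers was 0.44 and 0.42 at 0 h and lay between 0.22 and 0.35 in the later arrays, a set of ranges that do not overlap, and the list median was -0.14. Myelin markers had a median of -0.07 over 12 genes, 11 astrocyte markers -0.04 and 19 microglia and macrophage markers -0.02. In the lists for synaptic vesicle release and for ion channels and receptors, none of 27 and none of 33 genes passed, against the same background, and the medians were -0.09 and -0.09. Kcnq3, a potassium channel gene of the second list, was lower on the S-EtOH arrays alone (adjusted p = 0.0437, limma). Respiratory chain genes had a median of -0.12 over 58 members and ribosomal protein genes -0.07 over 65, again with no call.

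**Figure D4:**
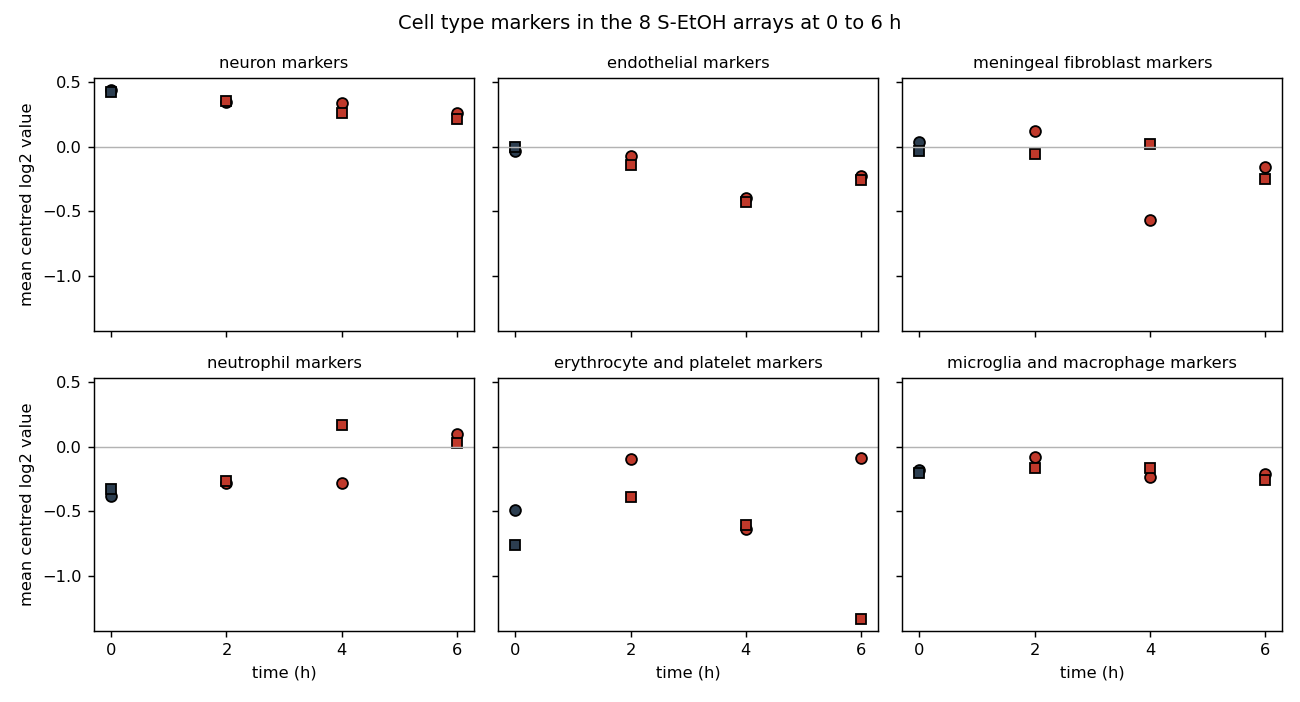
Mean centred log2 value of the markers of 6 cell types (y axis) in the 8 S-EtOH arrays by time (x axis). Circles are duplicate 1 and squares duplicate 2, with 0 h dark and later times red. The meningeal mean is low in 4 h duplicate 1 (-0.57), the erythrocyte and platelet mean is low in 6 h duplicate 2 (-1.33), and both endothelial values at 4 h lie near -0.4.

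No gene fell in the comparison fitted over all 60 arrays with equal weights. With array weights on the same 60 arrays 364 genes were higher and 572 lower. The injured arrays in that fit were noisier than the S-EtOH arrays. The median SD within a pair of duplicates was 0.05 at 0, 2 and 4 h and 0.06 at 6 h in S-EtOH, and 0.22 in SCI-EtOH at 6 h. Fitted on the 30 sham arrays alone, 36 genes were higher and 18 lower, and on the 16 S-EtOH arrays alone 41 were higher and 97 lower. Of the 23 rises, 20 passed in the former fit and 14 in the latter, and 17 genes fell in both. The following falls are therefore described as values, and they were picked after their values were seen.

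Slco1c1, a thyroid hormone transporter of the endothelium at the blood-brain barrier, showed the largest of these falls. It read 0.33 and 0.29 at 0 h, 0.02 and -0.20 at 2 h, -0.79 and -1.13 at 4 h, and -1.12 and -0.99 at 6 h, and its values at 24 and 48 h were 0.40, 0.30, -0.12 and 0.16. The difference was -1.01 ± 0.27, with an adjusted p of 0.21 over all arrays, 0.00288 over the sham arrays and 0.0201 over the S-EtOH arrays alone, each in limma. Slco1a4, another transporter of this barrier, read 0.38 and 0.59 at 0 h, 0.12 and 0.00 at 2 h, and from -0.70 to -0.33 at 4 and 6 h, a difference of -0.82 ± 0.29 (adjusted p = 0.776, limma). Abcg2, a drug efflux pump of the same cells, had -0.73 ± 0.22 and read 0.47 and 0.62 at 0 h and from -0.38 to 0.06 later. The mean of the 12 endothelial markers was -0.03 and 0.00 at 0 h, -0.07 and -0.14 at 2 h, -0.40 and -0.43 at 4 h, and -0.23 and -0.25 at 6 h, lower at all later arrays. Its part in the 3 transporter values was not tested.

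Of 16 measured clock genes none passed in the fit of all arrays, 6 had positive differences, the largest being 0.65 for Nfil3, and the median was -0.01. The 3 described next had negative differences and were picked after their values were seen. Dbp, a transcription factor driven directly by the clock, read 0.97 and 0.71 at 0 h, 0.32 and 0.51 at 2 h, 0.04 and 0.12 at 4 h, and 0.19 and 0.01 at 6 h. The difference was -0.64 ± 0.18 (adjusted p = 0.302 over all arrays and 0.0364 over the S-EtOH arrays alone, limma). Nr1d1, the clock repressor REV-ERB-alpha, had -0.60 ± 0.19, and Per3, a period gene, -0.49 ± 0.16. Nr1d1 read 0.97 and 0.69 at 0 h, 0.81 and 0.36 at 2 h, between -0.04 and 0.22 at 4 and 6 h, 1.07 and 1.04 at 24 h and 0.52 and 0.40 at 48 h, so its 2 h arrays overlapped those at 0 h. The rats were kept on a 12 h light and dark cycle, the clock time of each killing is unknown here, and time since the dose and time of day cannot be told apart.

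Taken time by time, against the same 0 h arrays, 2 genes were higher at 2 h (0.014%), 5 at 4 h (0.0349%) and 48 at 6 h (0.335%). None was lower at 2 h (0%) or 4 h (0%), where 47 and 187 genes were lower at an unadjusted p under 0.05, and 2 were lower at 6 h (0.014%). In both directions 169 genes at 2 h and 310 at 4 h had such a p, again below a 0.05 share of all genes. Of the 23 genes, 19 had their largest difference at 6 h, 3 at 4 h and 1 at 2 h. The genes called at 2 h were Ccl2, by 2.60 ± 0.44 (adjusted p = 0.00711, limma), and Nr4a3, an immediate early nuclear receptor, by 0.88 ± 0.14 (adjusted p = 0.00375, limma). Nr4a3 read -0.09 and -0.16 at 0 h, 0.76 and 0.75 at 2 h, 0.02 and 0.32 at 4 h, and -0.18 and -0.15 at 6 h. Its 2 h arrays stood clear of those at 0, 4 and 6 h, and it was back among the 0 h values at 6 h. Its relative Nr4a1 read -0.21 and -0.48 at 0 h, 1.24 and 1.12 at 2 h, and -0.26 and -0.18 at 6 h, without passing the test at 2 h (adjusted p = 0.282, limma). At 4 h the called genes were Ccl2, Mt1, Errfi1, Gadd45g and Arrdc2. Neither call at 2 h held when any 1 of the 4 arrays was left out, and with 1 left out the count at 4 h ranged from 0 to 13 and that at 6 h from 12 to 16.

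Osmr, Stat3, Cxcl10, Cd14, Tfpi2 and Mt2A were higher at 6 h without being among the 23, and none of the 6 passed the direct test of 6 h against 2 h. Osmr, the receptor subunit for oncostatin M, read -1.75 and -1.85 at 0 h and 0.05 and 0.21 at 6 h, a difference at 6 h of 1.93 ± 0.35 (adjusted p = 0.00384, limma). Stat3 itself was higher by 0.81 ± 0.18 at 6 h (adjusted p = 0.0339, limma). Cxcl10, an interferon-induced chemokine for T cells, went from -1.03 and -0.96 to 1.54 and 0.94, a difference of 2.23 ± 0.49 (adjusted p = 0.0248, limma). Cd14, the co-receptor for bacterial lipopolysaccharide on myeloid cells, went from -1.45 and -1.81 to 0.51 and -0.24, and Tfpi2, a protease inhibitor of the matrix, from -2.55 and -2.69 to -0.12 and 0.22. Mt2A, the other widely expressed metallothionein, went from -1.82 and -0.99 to 0.46 and 0.48, a difference of 1.87 ± 0.35 (adjusted p = 0.0048, limma). The genes lower at 6 h were Selplg, the leukocyte ligand of the selectins, by -0.78 ± 0.17, and Ddt, a relative of the cytokine MIF, by -0.55 ± 0.12, with adjusted p-values of 0.0265 and 0.0177 in limma.

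Compared directly with 2 h, 3 genes were higher at 6 h (0.0209%) and 1 was lower (0.00698%). Those higher were Mt1 by 1.76 ± 0.32, Csf2rb, the shared receptor chain of a family of myeloid cytokines, by 1.61 ± 0.29, and Sele by 0.79 ± 0.14, each with an adjusted p of 0.0149 in limma. Csf2rb read -1.54 and -1.40 at 0 h, -1.29 and -1.06 at 2 h, -1.09 and -0.55 at 4 h, and 0.62 and 0.25 at 6 h. The gene that fell was Nr4a3, by -0.92 ± 0.14 (adjusted p = 0.00159, limma). Without any 1 of the 2 h or 6 h arrays between 0 and 2 genes passed.

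By 24 and 48 h, set against 2 to 6 h, 52 genes were lower (0.363%) and 77 higher (0.538%) in S-EtOH. Among genes whose arrays did not overlap between these times, the falls were led by Ccl3 (-2.00 ± 0.40), Ccl2 (-1.84 ± 0.28), Tfpi2 (-1.56 ± 0.38), Lif (-1.44 ± 0.26) and Zfp36 (-1.40 ± 0.22). Ccl2 read -2.29 and -2.11 at 24 h and -2.76 and -3.05 at 48 h, still above its 0 h arrays. Timp1 did the opposite and was higher by 1.29 ± 0.27 (adjusted p = 0.01, limma), with 0.29 and 0.61 at 24 h and -0.30 and -0.01 at 48 h. Emp1, Ptges, Gbp5 and Slc39a14 did not pass in either direction.

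Among genes whose arrays at these times did not overlap those at 2 to 6 h, the 5 largest later rises were those of Lbp, Prg4, Fbn1, Lox and Crabp2. In the list of STAT3 acute phase targets 2 genes were higher at these times and 4 lower, with a median of -0.14, and of 14 meningeal fibroblast markers 2 were higher and none lower, with a median of 0.44. Lbp, the lipopolysaccharide-binding protein, read -0.75 and -1.07 at 0 h and from -1.35 to -0.24 at 2 to 6 h, and then 2.20, 2.12, 2.22 and 2.50 at 24 and 48 h. Its rise was 2.97 ± 0.26 (adjusted p = 6.84e-09, limma). Separation from the arrays at 2 to 6 h was a condition for naming it, and its later arrays also lay above both at 0 h. Prg4, a lubricating proteoglycan of joints and serosal surfaces, rose by 1.98 ± 0.36, Fbn1, fibrillin of elastic fibres, by 1.76 ± 0.25, Lox, the enzyme that crosslinks collagen, by 1.52 ± 0.28, and Crabp2, a retinoic acid carrier of meningeal fibroblasts, by 1.40 ± 0.29. With any 1 of the 10 arrays left out, the count of 129 genes became 29 to 102.

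**Figure D5:**
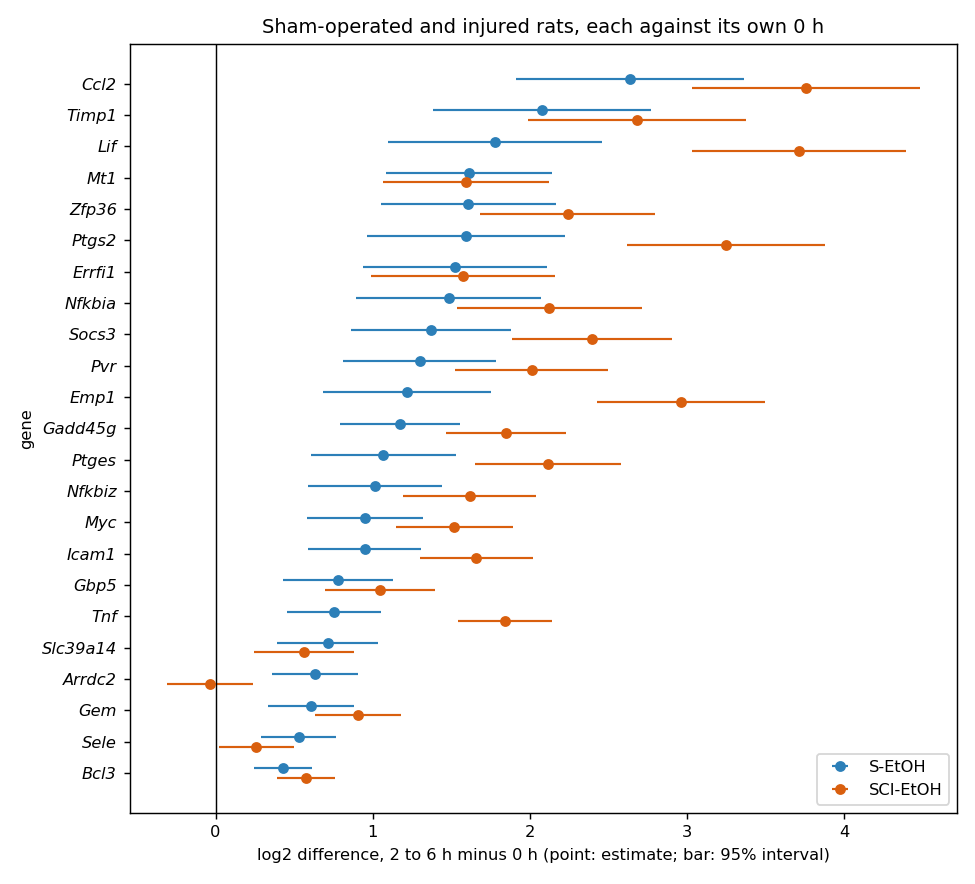
Log2 difference between 2 to 6 h and 0 h (x axis) of the 23 genes that rose in S-EtOH (y axis). Points are estimates in S-EtOH (blue) and SCI-EtOH (orange) rats, and bars are 95% intervals. Bars of both groups use a single variance per gene, fitted over all arrays, so they do not show each group's own spread. The injured rats reach 3.71 for Lif against 1.78 in sham rats, the estimates for Mt1 nearly coincide at 1.60 and 1.61, and Arrdc2 lies at -0.03 in injured rats.

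The injured rats have 0 h arrays of their own, so the change from 0 h could be compared between SCI-EtOH and S-EtOH. The injured change was larger in 59 genes (0.412%) and smaller, or more negative, in 107 (0.747%). Of the 23 genes, Lif, Emp1 and Tnf differed. Lif changed by 3.71 in SCI-EtOH and 1.78 in S-EtOH, a difference of 1.94 ± 0.47 (adjusted p = 0.0353, limma). Emp1 changed by 2.96 against 1.22, and Tnf by 1.84 against 0.76, with adjusted p-values of 0.0167 and 0.0076 in limma. Ptgs2 changed by 3.25 against 1.60, a difference that did not pass (adjusted p = 0.0515, limma).

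The other 20 did not pass the test of this difference, which does not show that they changed alike. Unadjusted 95% intervals of the difference lay above 0 for Ccl2, Ptgs2, Socs3, Pvr, Gadd45g, Ptges, Nfkbiz, Myc and Icam1, for example from 0.09 to 2.15 for Ccl2 and from 0.31 to 1.74 for Socs3. The intervals given here use a single variance per gene, fitted over all arrays, and not each group's own spread. At 6 h the median SD within a pair of duplicates was 0.22 in SCI-EtOH and 0.06 in S-EtOH. The estimates were closest for Mt1 and Errfi1. Mt1 changed by 1.60 in SCI-EtOH and 1.61 in S-EtOH and Errfi1 by 1.58 and 1.52, with 95% intervals of the difference from -0.76 to 0.73 and from -0.77 to 0.88. Arrdc2 changed by -0.03 in SCI-EtOH and 0.63 in S-EtOH, with an interval from -1.06 to -0.28 (adjusted p of the difference 0.0698, limma). The 166 genes depend on the SCI-EtOH arrays at 6 h, whose duplicates correlate at only 0.16. Without both of these arrays the count was 19, with 13 larger and 6 smaller or more negative. It was 339 with quantile normalization, 199 on the EtOH arrays alone and 1036 with array weights. Lif did not pass with quantile normalization or on the EtOH arrays alone. Tnf did not pass with quantile normalization, while Emp1 passed in both settings. Without the SCI-EtOH 6 h arrays Tnf passed, and Lif and Emp1 did not. Lif, Emp1 and Tnf each lost the call in some of the fits that left out a single array, and the count moved widely in such fits.

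Sham-operated rats given methylprednisolone in the same vehicle (S-MP) were sampled only from 2 h on, so only their values are given. At 2 to 6 h Ccl2 lay between -2.51 and -1.42 in S-MP, with a median of -2.30, and between -2.03 and -0.07 in S-EtOH, with a median of -0.58. Errfi1 lay between 0.16 and 0.94 in S-MP, with a median of 0.36, and between -0.72 and 0.50 in S-EtOH, with a median of -0.05. Mt1 had a median of 0.38 in S-MP and -0.09 in S-EtOH. The groups overlap in all 3 genes, and the difference was not tested.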

How the data were processed

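Total RNA of the cord was hybridised to Affymetrix rat gene arrays. The authors summarised probes by RMA, normalised them in GeneSpring GX 11 and deposited log2 values centred for each probe set, with the centre not given in the sources used here. Array number limits the precision: 2 rats per group and time, each a separate animal. Of 27342 probe sets, 15097 have 1 gene symbol in the platform annotation, 323 several and 11922 none. Symbols were updated through gene ID (15067 matched, RefSeq GRCr8), and probe sets of a gene were averaged, giving 14324 genes. All 60 arrays entered a single linear model with a mean for every combination of group and time (limma 3.58.1, R 4.3.3; 30 residual degrees of freedom, two-sided, Benjamini-Hochberg at 0.05). The procedure was run on simulated data with an equal spread in all arrays of a gene. That run does not cover the unequal spread of the groups seen here. Dim probe sets could not be removed, as centred values hold no background. Replicates carry duplicate numbers, and the sources used here do not say what rats with the same number share.

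Genes were named by a rule: the largest called changes whose groups do not overlap, the leading members of each list, and the largest differences of the later and injured comparisons. Other genes, such as list members that did not pass, were named after their values were seen. The comparison, the lists and the tests were chosen with earlier results of these data known. Alternatives covered normalization, arrays in the fit, array weights, the duplicate number as a block, moderation, a noise filter, testing per probe set, and leaving out times or single arrays.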

Additional observations from a re-analysis of the deposited data

Results flagged for a closer look

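The change between 2 to 6 h and 0 h was compared between SCI-EtOH and S-EtOH rats by a test of the difference itself, and the genes below are those that passed (limma, Benjamini-Hochberg over all genes) and were picked by size, with Emp1, Lif and Tnf from among the 23 sham rises. The difference was 2.71 for Cxcl2, a neutrophil chemokine that changed by 3.54 in injured and 0.82 in sham rats, 2.41 for its relative Cxcl1, 2.17 for the chemokine Ccl4 and 2.11 for Plaur, the urokinase receptor. It was 2.56 for the stress transcription factor Atf3, which changed by 3.32 against 0.76, and 2.52 for the MAP kinase phosphatase Dusp5. Emp1, Lif and Tnf differed by 1.74, 1.94 and 1.09.

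On the other side the difference was -1.26 for the synaptic vesicle protein Sv2b, which changed by -1.29 in injured and -0.03 in sham rats, -1.21 for the sodium channel subunit Scn4b, -1.15 for the potassium channel subunit Kcnab1 and -1.11 for Cacng2, an auxiliary subunit of glutamate receptors. Lgi2 and Tmem179 differed by -1.04 and -1.03. In sham rats each of these 6 genes changed by 0.16 or less in size. Atf3, Ccl4, Dusp5 and Plaur passed under every alternative run, while the other 11 lost the call in at least 1 of the fits that left out an array. Without the SCI-EtOH 6 h arrays 5 of the 15 genes kept the call, namely Atf3, Ccl4, Dusp5, Plaur and Tnf. No group had enough arrays for a test of single outlying samples.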

How the results depend on the processing

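Counts of genes past the threshold moved with the processing. The 23 rises at 2 to 6 h stayed positive wherever they were tested (the noise filter dropped Sele). That filter set the SD of a pair against the size of its mean centred value. It thus favours genes that lie far from their centre, and its count is no neutral check. The total of 23, all higher, became 79 with quantile normalization (43 higher, 36 lower), 138 on the S-EtOH arrays alone (41 and 97), 936 with array weights (364 and 572), 54 on the 30 sham arrays (36 and 18), 130 on the 8 arrays of the comparison (60 and 70), 15 without moderation (15 and 0), 35 with the noise filter (34 and 1), 2 without the 6 h arrays and 0 to 30 without single arrays. With quantile normalization the counts were 8 at 2 h, 25 at 4 h, 601 at 6 h, 224 for 6 h against 2 h, 2280 for 24 and 48 h against 2 to 6 h, and 339 for the difference from injured rats. On the S-EtOH arrays alone they were 8 at 4 h, 1424 at 6 h, 125 for 6 h against 2 h and 2514 for the later times. Array weights gave 58, 254, 2209, 410, 2931 and 1036 in the same order as quantile normalization. Without single arrays the counts were 0 to 0 at 2 h, 0 to 13 at 4 h, 12 to 16 at 6 h, 0 to 2 for 6 h against 2 h, 29 to 102 for the later times and 5 to 1002 for the injured rats. Alas2, not called, changed sign without S-EtOH 0 h duplicate 2 (-0.06) and without 6 h duplicate 1 (-0.11), and reached 0.58 without 6 h duplicate 2. The cause of these shifts was not tested, except that leaving out arrays leaves fewer samples.

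Over all genes, same-numbered S-EtOH duplicates at 0 to 6 h did not deviate together (correlations -0.05 to 0.07 over 6 pairs). Whether they share something that moves a smaller set of genes cannot be seen from these values. With the replicate number as a block 19 genes were called at 2 to 6 h, 2, 4 and 49 at 2, 4 and 6 h, 5 for 6 h against 2 h, 121 for the later times and 157 for the injured rats. Duplicates of 2 limit every comparison with a single time.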
